A study of Mus musculus with 9 samples.

Results

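The 8 genes described here belong to the glucocorticoid response: the receptor gene Nr3c1, the steroid-activating enzyme gene Hsd11b1, and 6 genes known to be induced by the hormone, Ddit4, Fkbp5, Tsc22d3, Sgk1, Zbtb16 and Errfi1. They are 8 of the 21989 protein-coding genes in a deposited expression table of the mouse aortic arch, the curved segment next to the heart where plaque tends to form early. They were taken by name, and the set was chosen by the Ddit4 values, which are high in the high dose libraries. That choice used the high dose values, so differences between high dose and the other groups are given for these genes as a description, without a test.

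RNA sequencing covered 9 libraries in 3 groups of 3. High dose libraries came from ApoE-/- mice on a high-fat diet for 15 weeks that were given ZCL, a preparation of the plant Ziziphora clinopodioides Lam., at 5.12 g/kg/day by gavage for 15 weeks. Model libraries came from ApoE-/- mice on the same diet, and control libraries from C57BL/6J mice fed standard diet. High dose and model share the missing ApoE gene and the diet. The labels used here state gavage for high dose only, so the parts of ZCL and of gavage itself cannot be told apart. Genotype and diet differ together between model and control, so their parts in any difference cannot be told apart. Ages are not given in the labels used here, and they do not tell whether replicate libraries are different mice, so p-values reflect no more than the variation among these samples, part of which may be technical. Apoe, read as a check of genotype, stood at 25.4 to 93.7 FPKM in high dose, 18.9 to 33.4 FPKM in model and 340 to 1006 FPKM in control.

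Glucocorticoids enter cells and bind the receptor encoded by Nr3c1, which is held in the cytoplasm by heat shock chaperones. The bound receptor moves to the nucleus and binds a palindromic DNA element near its target genes, or is tethered to other factors and represses inflammatory genes. In vessels, fat and liver the local supply of active hormone also depends on Hsd11b1, which regenerates it from its inactive form. None of the induced genes answers to the hormone alone. Ddit4 is also induced by hypoxia, by amino acid shortage through the integrated stress response, and by DNA damage.

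Values are FPKM, fragments scaled by gene length and library total, which allows levels of different genes to be compared within a library. Differences are on the log2(FPKM + 1) scale, with the standard error (SE) of 1 limma fit over all 9 libraries. The fit held the 12895 genes with 3 or more libraries at 1 FPKM or above, 6 of the 8 among them. Fkbp5 and Errfi1 stayed under 1 FPKM in every library and were described only. The tissue is bulk RNA, so fewer cells of a type and less RNA per cell cannot be told apart.

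Libraries differed in the neighbouring tissue they carried. The summed level of 15 heart muscle markers ran from 35.2 to 21682 FPKM in high dose, from 56.1 to 102 FPKM in model and from 44.5 to 34941 FPKM in control. It was low, at 102 FPKM or less, in high dose 1, the 3 model libraries and control 3. The summed level of 9 airway epithelium markers was 31668 FPKM in high dose 2 and 9712 FPKM in control 2, and at most 102 FPKM in the other libraries. That of 7 skeletal muscle markers was 8860 FPKM in high dose 2 and at most 387 FPKM in the other libraries. For 6 brown fat markers it was 12554 FPKM in control 3 and 955 to 4282 FPKM in the other libraries. Lists of blood and immune cells moved with the groups. The summed level of 10 macrophage markers was 502 to 2388 FPKM in high dose, 1231 to 6205 FPKM in model and 176 to 660 FPKM in control, with model above control in every library. That of 6 red cell markers was 2693 to 21259 FPKM in high dose, 21374 to 64113 FPKM in model and 8840 to 15943 FPKM in control, with model above both. The summed level of 7 smooth muscle markers was between 488 and 4471 FPKM in the 9 libraries, and all 6 endothelial markers summed to between 200 and 439 FPKM. Relative depth lay between 56.3% in control 2 and 100% in model 1. The parts of neighbouring tissue and depth in the results were not tested, and values bearing on them stand beside the genes concerned.

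Upstream sequence is shown for Ddit4 and Fkbp5, which lay above model in every high dose library, and for Sgk1 and Tsc22d3, the genes whose windows hold the receptor's letters. Windows of 250 bases before each annotated start came from RefSeq on GRCm38.p6, and 6 of the 8 genes had at least 1 window, 14 windows in all. The strings searched, on both strands, were the receptor palindrome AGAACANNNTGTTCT, its single arm TGTTCT, which is contained in the palindrome, and ACGTG, the core of the site bound by hypoxia-inducible factors. Positions are counted back from the first base of the RefSeq transcript. Only the part of a window outside the gene's own annotated exons is printed, 5′ to 3′ on the gene's strand.

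Ddit4 has 1 window, printed for chr10:59951835-59952020, minus strand, with capitals marking ACGTG at position -187:
Ddit4: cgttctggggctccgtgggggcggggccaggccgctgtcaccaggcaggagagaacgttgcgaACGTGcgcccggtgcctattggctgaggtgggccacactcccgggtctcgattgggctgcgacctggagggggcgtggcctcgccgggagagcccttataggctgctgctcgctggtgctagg

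Fkbp5 has 1 window, chr17:28486150-28486399, minus strand, with capitals marking a run that holds ACGTG on both strands:
Fkbp5: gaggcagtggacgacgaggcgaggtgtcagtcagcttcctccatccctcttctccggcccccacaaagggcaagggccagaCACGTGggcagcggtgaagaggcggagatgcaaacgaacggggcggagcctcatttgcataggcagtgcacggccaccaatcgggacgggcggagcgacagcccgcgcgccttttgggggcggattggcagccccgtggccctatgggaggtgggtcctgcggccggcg

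Sgk1 has 6 windows, of which the one at chr10:21993640-21993889, plus strand, is printed because it holds the only full palindrome among these genes, in capitals at position -189:
Sgk1: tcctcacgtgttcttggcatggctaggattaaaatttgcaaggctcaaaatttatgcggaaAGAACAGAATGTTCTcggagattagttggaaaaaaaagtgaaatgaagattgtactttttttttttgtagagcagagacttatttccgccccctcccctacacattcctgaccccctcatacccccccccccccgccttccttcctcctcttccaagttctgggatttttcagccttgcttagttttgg

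Tsc22d3 has 3 windows, of which the printed one, chrX:140600660-140600772, minus strand, carries the single arm in capitals at position -185:
Tsc22d3: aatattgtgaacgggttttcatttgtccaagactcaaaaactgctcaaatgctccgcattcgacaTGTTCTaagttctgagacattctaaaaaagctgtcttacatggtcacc

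The palindrome was found in 3 of 32851 such windows over 27025 genes (0.00913%). The single arm was found in 16.1% of all windows and in 4 of the 14 windows of these genes, 3 of them at Sgk1. The hypoxia core was found in 16.6% of all windows and in 4 of the 14, at Ddit4, Fkbp5, Sgk1 and Errfi1. A match describes letters in a window, and receptor sites farther away were not searched.

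Ddit4 encodes an inhibitor of the growth kinase complex TORC1 and lies at chromosome 10, 59949669 to 59951834, minus strand; all gene positions given are on GRCm38. Its level was 85.6, 139 and 80.3 FPKM in high dose, 15.8, 21.2 and 19.0 FPKM in model, and 26.3, 57.5 and 44.4 FPKM in control. The groups formed 3 separate bands: every high dose library lay above every control library, and every control library above every model library. The mean of 102 ± 32.6 FPKM in high dose was 5.45 times the 18.7 ± 2.72 FPKM in model and 2.38 times the 42.7 ± 15.7 FPKM in control (SD, n = 3 each).

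On the log2 scale Ddit4 differed by 2.35 ± 0.33 (SE) between high dose and model and by 1.26 ± 0.33 between high dose and control. Among the 12895 genes of the fit, 234 had a larger difference from model and 173 a larger difference from control. The set was chosen for high Ddit4 in high dose, so these places in the order follow from the choice and test nothing. Ddit4 in model lay 1.09 below control on the log2 scale (log2 difference -1.09 ± 0.33, SE). The rule that chose the genes did not use this comparison, though earlier results of these data were known. The comparison gave a limma adjusted p = 0.688 over all genes tested, so it missed the threshold of 0.05. Ddit4 was lower in 3 of 3 model libraries than in any control library, and the macrophage and red cell sums were higher in the same 3. Their part in the Ddit4 difference was not tested.

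Ddit4 was read apart in libraries low and high in heart muscle markers. Among the 5 libraries low in them, Ddit4 was 85.6 FPKM in high dose 1, 15.8 to 21.2 FPKM in the model libraries and 44.4 FPKM in control 3. High dose 1, the only high dose library of these, had a summed level of 12 sympathetic and chromaffin markers of 3862 FPKM, against 2.61 to 25.6 FPKM in model and 229 FPKM in control 3, and the lowest smooth muscle sum of all libraries, 488 FPKM. Among the 4 libraries rich in them, all high dose or control, it was 139 and 80.3 FPKM in high dose 2 and 3, against 26.3 and 57.5 FPKM in control 1 and 2. High dose 2 and control 2, which carry airway markers, held the highest Ddit4 of their groups as deposited. High dose 2 was also the library rich in skeletal muscle markers, at a summed 8860 FPKM. After the libraries were rescaled by median ratios, Ddit4 kept its 3 separate bands, with 80.5 to 145 FPKM in high dose, 16.2 to 20.5 in model and 27.5 to 51.0 in control, where control 3 was then the highest and control 2 stood at 48.7.

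**Figure D1:**
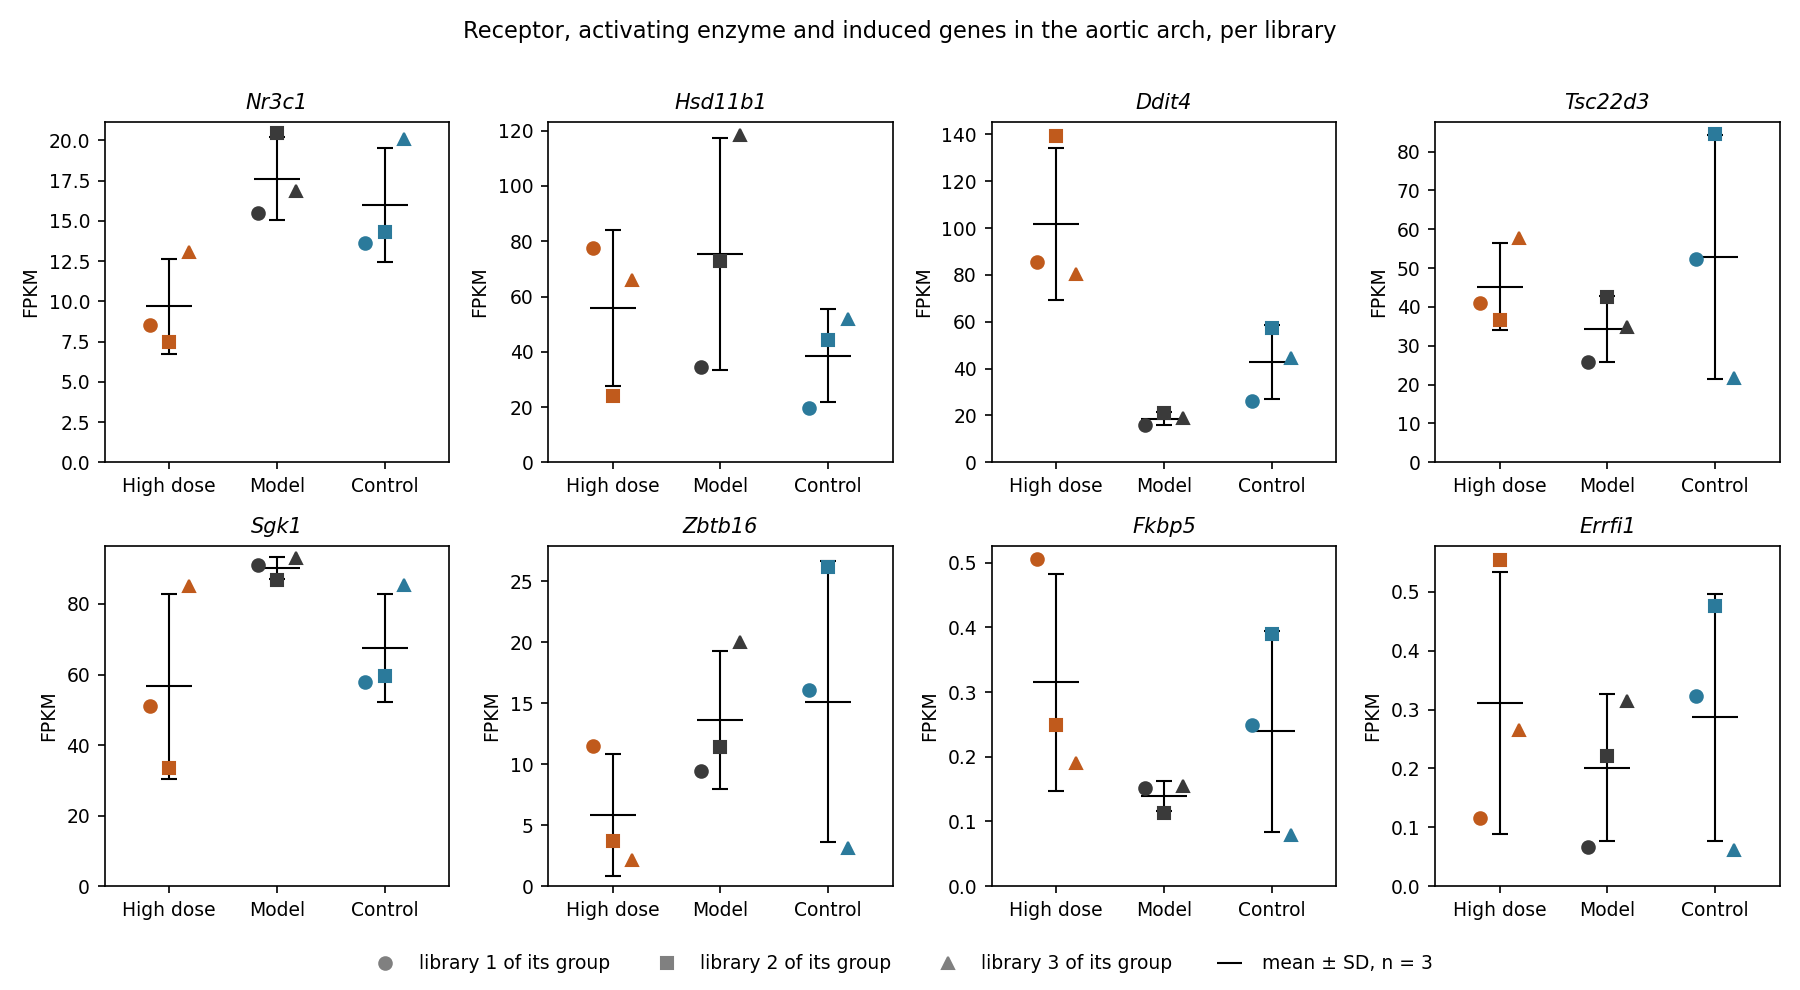
FPKM of each of the 8 genes in the 9 libraries, 1 panel per gene with its own axis from 0; points are libraries, and the bar and whiskers are the group mean ± SD (n = 3). Ddit4 forms 3 bands with high dose on top at 80.3 to 139 FPKM, while the groups overlap for Tsc22d3, Zbtb16, Errfi1 and Hsd11b1.

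Fkbp5, on chromosome 17 from 28399094 to 28517527, encodes a co-chaperone that lowers the receptor's affinity for hormone and is among the most used readouts of receptor activity. Its level was 0.505, 0.249 and 0.191 FPKM in high dose, 0.152, 0.113 and 0.154 FPKM in model, and 0.248, 0.390 and 0.0793 FPKM in control. High dose lay above model in every library, and control overlapped both. The mean was 0.315 ± 0.167 FPKM in high dose, 0.140 ± 0.0233 FPKM in model and 0.239 ± 0.155 FPKM in control (SD, n = 3 each), all under the filter of 1 FPKM. Fkbp5 and Errfi1 are widely expressed genes, and the counting step behind such low values is not given in the sources used here, so these rows may not hold all reads of the genes. Without the filter on low values the fitted log2 difference was 0.20 ± 0.116 (SE) between high dose and model.

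Tsc22d3, known as GILZ, encodes a leucine zipper protein that mediates anti-inflammatory effects of the hormone. It lies on chromosome X from 140539528 to 140600659. Its level was 41.0, 36.8 and 57.9 FPKM in high dose, 25.7, 42.4 and 34.8 FPKM in model, and 52.3, 84.5 and 21.6 FPKM in control. The groups overlapped in all comparisons, and control held both the highest and the lowest value. The log2 difference was 0.39 ± 0.455 between high dose and model and -0.05 ± 0.455 between high dose and control. Between model and control it was -0.44 ± 0.455 with a limma adjusted p = 0.896, all ± SE. The model and control difference ran from -0.96 without control 3 to -0.0030 without control 2, and the difference of high dose from control from -0.57 without control 3 to 0.39 without control 2. With heart muscle markers as a covariate the difference of high dose from model was -0.07.

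Sgk1 encodes a kinase that regulates ion channels and cell survival, and spans 21882184 to 21999903 on chromosome 10. Its level was 51.2, 33.6 and 85.1 FPKM in high dose, 91.0, 86.8 and 93.0 FPKM in model, and 57.8, 59.4 and 85.3 FPKM in control. The model libraries lay above all others and close together, the opposite side from Ddit4, which was lowest there. High dose 3 at 85.1 FPKM is close to model 2 at 86.8 FPKM, and after median-ratio rescaling both pairs of groups overlapped (85.3 FPKM in high dose 3, 84.1 FPKM in model 2 and 98.0 FPKM in control 3). The log2 difference was -0.76 ± 0.332 between high dose and model and -0.33 ± 0.332 between high dose and control. Model was 0.44 ± 0.332 above control, with a limma adjusted p = 0.842 (all ± SE). The part of the macrophage and red cell signal, higher in the model libraries too, was not tested.

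Zbtb16, known as PLZF, encodes a zinc finger transcription factor strongly induced by the hormone in many cells, and lies on chromosome 9 from 48654297 to 48836222. Its level was 11.5, 3.73 and 2.19 FPKM in high dose, 9.41, 11.4 and 20.1 FPKM in model, and 16.1, 26.1 and 3.16 FPKM in control. Values spread widely within high dose and within control, and no pair of groups was separate. The log2 difference was -1.28 ± 0.729 between high dose and model and -1.12 ± 0.729 between high dose and control. Between model and control it was 0.17 ± 0.729, with a limma adjusted p = 0.985 (all ± SE). That difference turned to -0.62 without control 3 and was 0.73 without control 2.

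Errfi1, on chromosome 4 from 150853919 to 150868892, encodes a feedback inhibitor of the epidermal growth factor receptor. It was listed at 0.116, 0.554 and 0.265 FPKM in high dose, 0.0671, 0.221 and 0.315 FPKM in model, and 0.323, 0.477 and 0.0606 FPKM in control. The groups overlapped in all comparisons.

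Nr3c1, the receptor itself, was lower in high dose than in either other group. Its level was 8.52, 7.5 and 13.0 FPKM in high dose, 15.5, 20.5 and 16.9 FPKM in model, and 13.6, 14.3 and 20.1 FPKM in control. No high dose library reached the lowest model or control library, and model and control overlapped. Means were 9.69 ± 2.95 FPKM in high dose, 17.6 ± 2.58 FPKM in model and 16.0 ± 3.55 FPKM in control (SD, n = 3 each).

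Nr3c1 in high dose differed by a log2 of -0.83 ± 0.254 from model and -0.68 ± 0.254 from control. Rescaling by median ratios kept the separation from model, while control 2 at 12.1 FPKM then fell under high dose 3 at 13.1 FPKM. Model and control differed by 0.14 ± 0.254, with a limma adjusted p = 0.952 (all ± SE). In high dose 1, which is low in heart muscle markers, Nr3c1 was 8.52 FPKM, against 15.5 to 20.5 FPKM in the model libraries and 20.1 FPKM in control 3, which are low in them too.

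Hsd11b1 encodes the reductase that turns inactive 11-keto steroid into active corticosterone, and is abundant in fat. It lies on chromosome 1 from 193221634 to 193264075. Its level was 77.7, 24.0 and 66.0 FPKM in high dose, 34.4, 72.9 and 118 FPKM in model, and 19.7, 44.2 and 51.8 FPKM in control. The groups overlapped, and each held a low library. The lowest library of each group, high dose 2, model 1 and control 1, was also the lowest in the mean of 6 white fat markers, at 5.16, 5.85 and 5.88 on the log2(FPKM + 1) scale.

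The mean of those white fat markers in the other 6 libraries was between 6.22 and 7.89. The part of fat in the Hsd11b1 values was not tested. The log2 difference of Hsd11b1 was -0.42 ± 0.592 between high dose and model and 0.47 ± 0.592 between high dose and control. Between model and control it was 0.89 ± 0.592, with a limma adjusted p = 0.811 (all ± SE). The difference of high dose from model was 0.098 without high dose 2 and 0.097 with heart muscle markers as a covariate. That of model from control ran from 0.36 with that covariate to 1.57 with array weights. The gene overlaps Lamb3 on the opposite strand, without shared exon bases, and Lamb3 was listed at 0.232 to 7.35 FPKM.

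**Figure D2:**
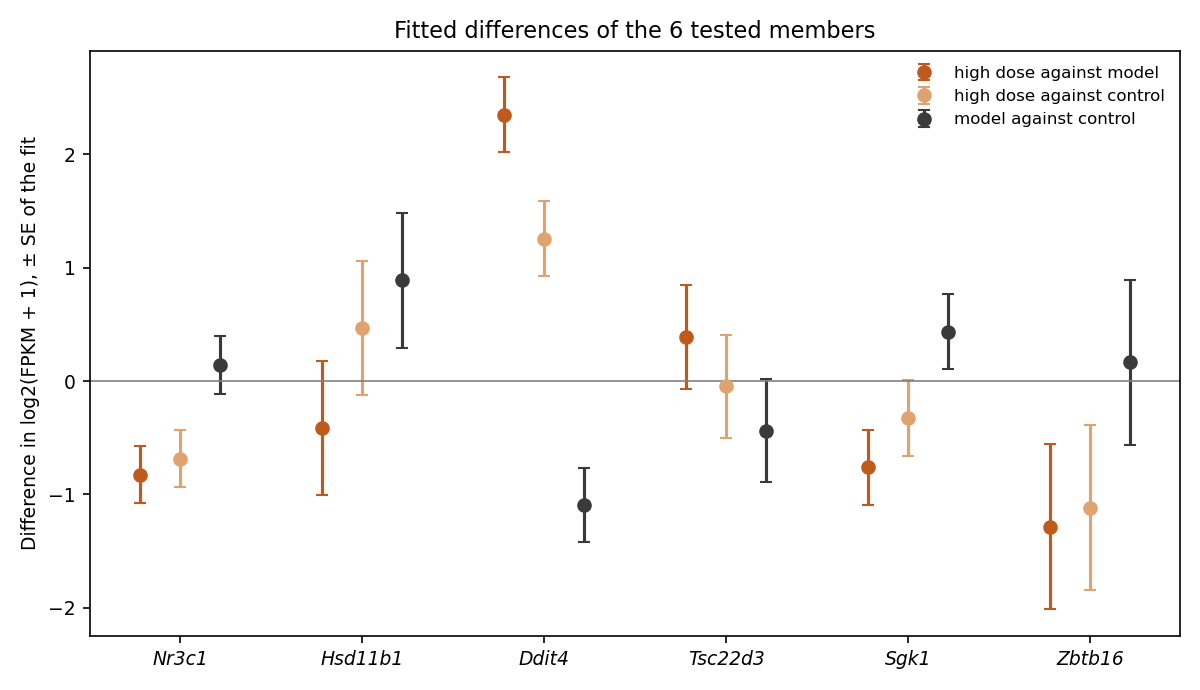
Difference in log2(FPKM + 1) of the 6 genes that entered the fit, with its standard error, for high dose against model, high dose against control and model against control. Ddit4 stands at 2.35 and 1.26 in the high dose comparisons and at -1.09 between model and control, while Sgk1, Zbtb16 and Nr3c1 lie below 0 in both high dose comparisons.

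The 6 genes known as induced by glucocorticoid did not share a direction in high dose, so the name describes what they are known for and not how they moved here. High dose lay apart from model for 4 of the 8: above it for Ddit4 and Fkbp5, and below it for Sgk1 and Nr3c1. Fkbp5 did not enter the fit, so among the 6 tested genes high dose was above for 1 and below for 2. Of all 12895 genes tested, 22.6% had separate groups in that comparison, 11.7% with high dose above and 10.9% below. High dose lay apart from control for 2 of the 8, above for Ddit4 and below for Nr3c1, both among the 6 tested. In that comparison 8.68% of all genes tested were separate, 3.66% with high dose above and 5.02% below. These counts took in the contrasts that chose the set, and nothing is read from them.

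Between model and control 0 of the 6 tested genes passed an adjusted p under 0.05, and 1, Ddit4, had an unadjusted p under 0.05. Of all genes tested 0% passed the adjusted threshold in limma, and 6.37% had an unadjusted p under 0.05. The groups were separate for 2 of the 6, Ddit4 with model below and Sgk1 with model above, where 16.0% of all genes were, 9.06% with model below and 6.91% with model above.

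Ddit4 headed the order of levels in high dose. Its 102 FPKM stood above Sgk1 at 56.6 ± 26.2, Hsd11b1 at 55.9 ± 28.3 and Tsc22d3 at 45.2 ± 11.2 FPKM, 3 genes that do not differ beyond their spread. The highest Sgk1 library of high dose, at 85.1 FPKM, still overlapped the lowest Ddit4 library at 80.3 FPKM. Nr3c1 at 9.69 and Zbtb16 at 5.82 ± 5.01 FPKM followed and overlapped. In model the order began with Sgk1 at 90.3 ± 3.14 FPKM and Hsd11b1 at 75.2 ± 42.0 FPKM, followed by Tsc22d3 at 34.3 ± 8.38 FPKM, each overlapping its neighbour. Ddit4 at 18.7, Nr3c1 at 17.6 and Zbtb16 at 13.6 ± 5.66 FPKM came next in model, within each other's spread.

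In control the order was Sgk1 at 67.5 ± 15.4, Tsc22d3 at 52.8 ± 31.5, Ddit4 at 42.7 and Hsd11b1 at 38.6 ± 16.8 FPKM, neighbours that overlap. Nr3c1 at 16.0 and Zbtb16 at 15.1 ± 11.5 FPKM followed in control. Fkbp5 and Errfi1 were the lowest in every group, all ± values being SD of 3 libraries.

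Within groups the induced genes did not all move together. Control 2 held the highest control value of 5 of the 6, all but Sgk1, and after rescaling also not of Ddit4, while control 3 held the lowest of Fkbp5, Tsc22d3, Zbtb16 and Errfi1 and the highest of Sgk1, Nr3c1 and Hsd11b1. Control 2 was also the only library with Cyp11b1 and Hsd3b1, enzymes of corticosteroid synthesis in the adrenal cortex, above 1 FPKM, at 1.79 and 12.3 FPKM. In its group, high dose 3 likewise held the lowest Fkbp5 and Zbtb16 and the highest Sgk1 and Nr3c1, but the highest Tsc22d3. The part of adrenal or airway tissue in the control 2 values was not tested.

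Other genes known to be induced by glucocorticoid were read from a list of 32, of which 29 were tested. In no comparison did any pass an adjusted p under 0.05 in limma, where 0% of all genes passed too. An unadjusted p under 0.05 was reached by 11 of 29 between high dose and model, where 13.4% of all genes had one. It was reached by 7 between high dose and control, where 5.44% of all genes did, and by 2 between model and control, where 6.37% did. Their median log2 difference was 0.13, 0.16 and -0.28 in these comparisons, beside 0.00080, 0.0022 and -0.010 over all genes tested. High dose lay apart from model for 8 above and 3 below, beside 11.7% and 10.9% of all genes, and apart from control for 4 above and 1 below, beside 3.66% and 5.02%. This list was chosen with earlier results of these data known. An excess over the shares of all genes may come from that choice, and nothing is read from it.

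The metallothioneins Mt1 and Mt2, metal-binding proteins induced by glucocorticoid and by zinc, showed the largest differences from model among the genes named here. Mt2 was 478, 2520 and 1486 FPKM in high dose, 181, 72.9 and 152 FPKM in model, and 239, 250 and 147 FPKM in control. Every high dose library lay above every other library for both genes. The log2 difference of Mt2 was 3.25 ± 0.615 from model (limma adjusted p = 0.162) and 2.55 ± 0.615 from control (adjusted p = 0.705). That of Mt1 was 2.91 ± 0.424 from model (limma adjusted p = 0.141) and 2.00 ± 0.424 from control (adjusted p = 0.569), all ± SE. Reads of such close paralogues can be split uncertainly between them.

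Per1 and Klf15, both transcriptional regulators, lay above model in every high dose library. Per1, a clock repressor with a well-known receptor site, was 27.2, 37.2 and 26.0 FPKM in high dose, 7.53, 13.2 and 16.1 FPKM in model, and 21, 19.4 and 8.69 FPKM in control, so that high dose was separate from both. Klf15, a regulator of amino acid metabolism, was 13.2 to 17.4 FPKM in high dose, 3.71 to 7.46 FPKM in model and 8.59 to 15.4 FPKM in control, with model below both. The limma adjusted p between high dose and model was 0.271 for Per1 and 0.173 for Klf15. Cebpd, an inflammatory transcription factor, overlapped, with 18.3, 79.4 and 63.1 FPKM in high dose, 20.2, 7.85 and 11.3 FPKM in model and 24.3, 41.4 and 13.4 FPKM in control.

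Klf9, another direct target of the receptor, did not share that direction. It was 39.1, 22.6 and 20.7 FPKM in high dose, 22.3, 24.4 and 26.9 FPKM in model and 36.1, 37.3 and 34.6 FPKM in control, with model below control in every library. Bcl6, a transcriptional repressor, lay above control in model, at 22.7 ± 3.9 FPKM against 11.1 ± 5.23 FPKM (SD, n = 3 each; limma adjusted p = 0.713).

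Dusp1 and Pdk4, both classic induced genes, lay on the other side. Dusp1, a phosphatase that switches off MAP kinases, was 51.1, 109 and 96.3 FPKM in high dose, 136, 207 and 146 FPKM in model and 150, 164 and 104 FPKM in control. Pdk4, a kinase that limits glucose oxidation, was 49.5, 100 and 82.7 FPKM in high dose, 134, 410 and 615 FPKM in model and 543, 144 and 612 FPKM in control. High dose lay below model in every library for both genes, and below control in every library for Pdk4 only. The limma adjusted p between high dose and model was 0.327 for Dusp1 and 0.298 for Pdk4.

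**Figure D3:**
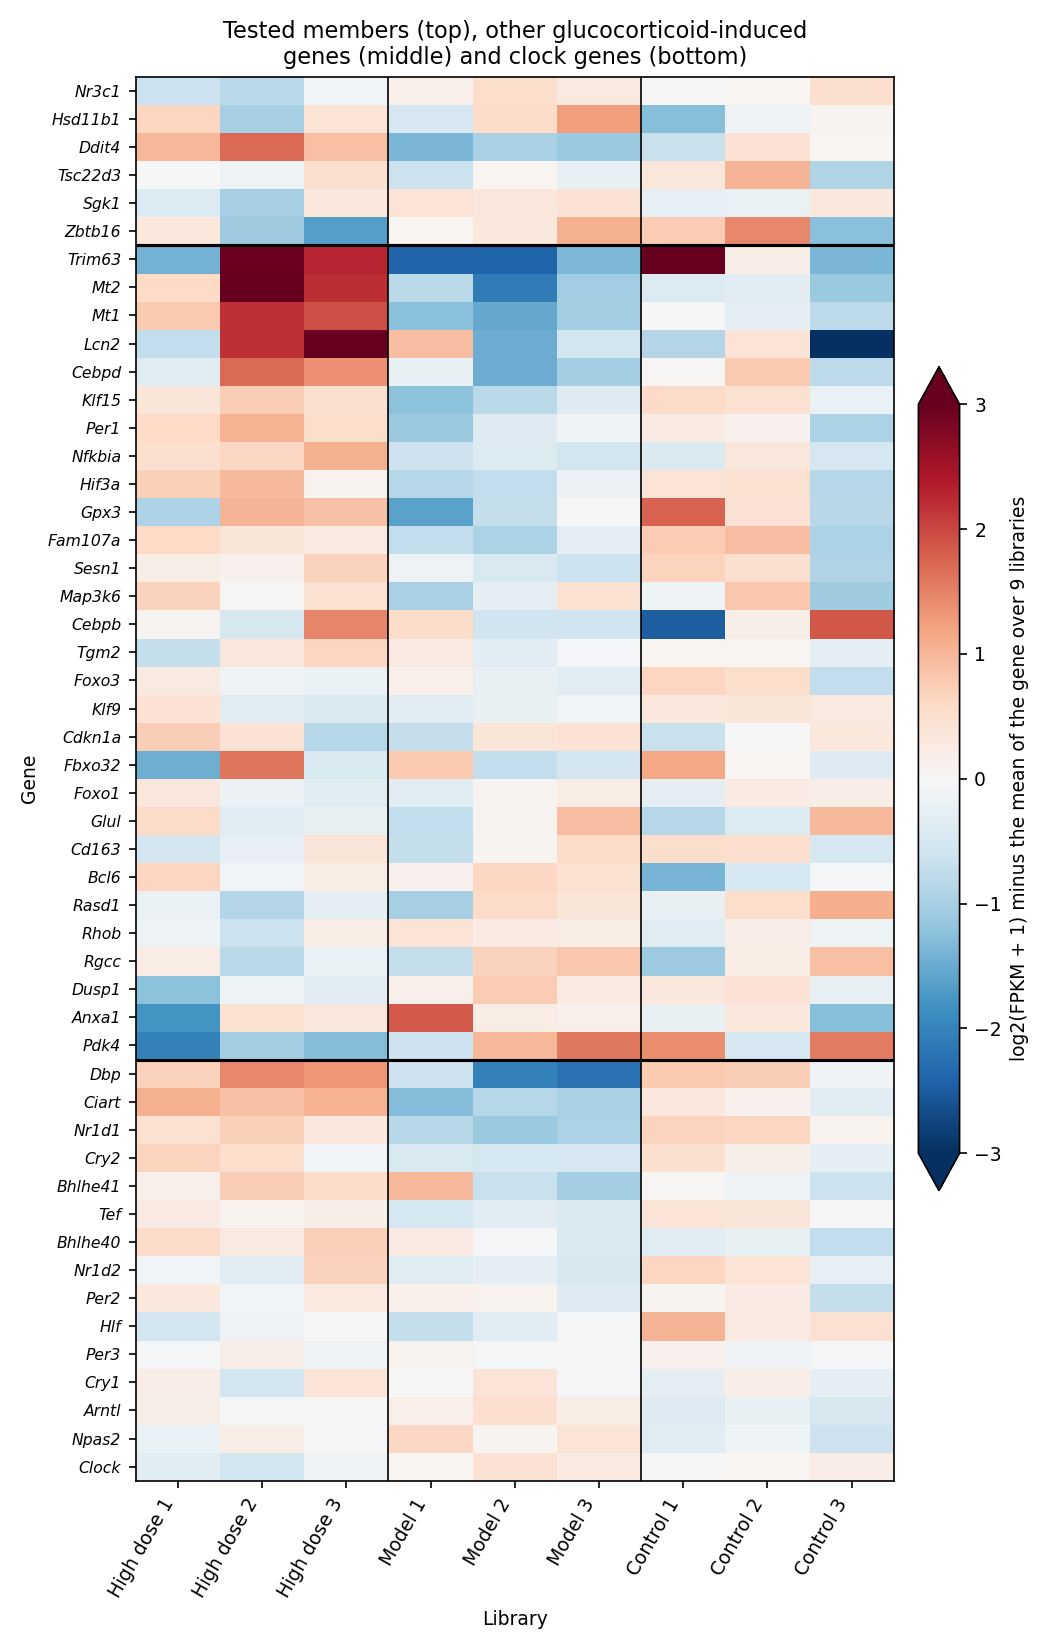
Heat map of log2(FPKM + 1) minus the gene's mean over the 9 libraries for the members, the other glucocorticoid-induced genes and the circadian clock genes (rows) in each library (columns). Mt1, Mt2, Per1 and Klf15 are above their mean in the 3 high dose libraries, and Pdk4 and Dusp1 are higher in model than in high dose.

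Genes that act on the receptor and its ligand were read next. Between high dose and model 4 of 17 chaperones and coregulators had separate groups, 1 above and 3 below, near the 22.6% of all genes. Of these 17, 0 passed the adjusted threshold in any comparison, and an unadjusted p under 0.05 was reached by 3 between high dose and model, 0 between high dose and control and 1 between model and control, beside 13.4%, 5.44% and 6.37% of all genes. The 3 were the coactivators Ncoa1 and Ep300 and the chaperone St13. Ncoa1 was 7.11 to 8.77 FPKM in high dose, 3.98 to 5.42 FPKM in model and 5.92 to 6.41 FPKM in control, separate in all 3 comparisons. Ep300 and St13 lay lower in high dose than in model, at 7.04 ± 0.731 against 11.2 ± 0.934 FPKM and at 43.8 ± 9.23 against 70.3 ± 4.02 FPKM (SD, n = 3 each; limma adjusted p = 0.285 and 0.327). Of 6 tested genes of corticosteroid metabolism and transport, 0 had an unadjusted p under 0.05 in any comparison, beside the same shares of all genes. The export pump Abcb1a averaged 10.9 ± 5.86 FPKM in high dose, 5.56 ± 1.56 FPKM in model and 7.38 ± 3.4 FPKM in control.

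The other known inputs of Ddit4 were read the same way. Of 15 tested hypoxia genes 0 passed, and an unadjusted p under 0.05 was reached by 2 between high dose and model, on opposite sides, by 2 between high dose and control and by 0 between model and control, beside the same 13.4%, 5.44% and 6.37%. Vegfa, the vascular growth factor, was 153, 90.1 and 172 FPKM in high dose, 41.3, 98.4 and 85.8 FPKM in model, and 65.0, 76.2 and 100.1 FPKM in control, and the groups overlapped. Ankrd37, a target of hypoxia-inducible factor, averaged 1.04 ± 0.399 FPKM in high dose, 3.51 ± 1.77 FPKM in model and 2.44 ± 0.603 FPKM in control (SD, n = 3 each).

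Of 14 tested integrated stress response genes 0 passed, and 4 had an unadjusted p under 0.05 between high dose and model, beside 13.4% of all genes: Chac1, Psat1 and Trib3 with high dose above, and Sesn2 with high dose below. High dose against control and model against control gave 1 each, beside 5.44% and 6.37%. Chac1, which degrades glutathione, followed the bands of Ddit4, at 5.51, 7.69 and 3.73 FPKM in high dose, 1.24, 0.635 and 1.15 FPKM in model, and 3.09, 1.66 and 2.16 FPKM in control. Its log2 difference between high dose and model was 1.70 ± 0.295 (SE), with a limma adjusted p = 0.159. Sesn2, which like Ddit4 restrains TORC1, averaged 2.54 ± 1.54 FPKM in high dose, 5.72 ± 1.11 FPKM in model and 4.85 ± 2.66 FPKM in control.

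The median log2 difference between high dose and model was 0.04 over the hypoxia list and 0.11 over the stress list. Of 11 tested genes around TORC1, on which Ddit4 acts, 0 had an unadjusted p under 0.05 in any comparison. Beside it stand 13.4%, 5.44% and 6.37% of all genes, shares at which few of 11 genes would be called. Ddit4l, the paralogue of Ddit4, averaged 3.14 ± 3.2 FPKM in high dose, 1.24 ± 0.546 FPKM in model and 0.899 ± 0.0256 FPKM in control (SD, n = 3 each). These overlapped.

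The genes whose profile over the 9 libraries was most like that of Ddit4 were S1pr3, Rap1gap, Il20rb, Pcsk4 and Ciart. Likeness was the root mean square difference between log2(FPKM + 1) profiles centred on their own means, which was 0.356 for S1pr3 and had a median of 1.10 over 12464 named genes. S1pr3, a receptor for sphingosine 1-phosphate, was 35.5, 30.1 and 16.7 FPKM in high dose, 3.33, 4.00 and 6.94 FPKM in model, and 6.95, 20.8 and 10.6 FPKM in control. Its high dose and control values overlapped, unlike those of Ddit4. Ciart, a clock repressor, was 10.4, 9.02 and 10.1 FPKM in high dose, 1.19, 2.02 and 1.76 FPKM in model, and 5.76, 4.92 and 3.36 FPKM in control, again 3 separate bands.

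The other genes of that order lay in the same direction. Rap1gap, which switches off the small GTPase Rap1, was 11.3 to 23.8 FPKM in high dose, 3.07 to 5.34 FPKM in model and 6.18 to 10.4 FPKM in control. Il20rb, a receptor subunit for interleukins of the IL-20 family, was 6.11 to 12.4 FPKM in high dose, 2.22 to 2.62 FPKM in model and 2.83 to 4.41 FPKM in control. Pcsk4, a proprotein convertase, was 6.79 to 11.1 FPKM in high dose, 1.42 to 2.14 FPKM in model and 1.49 to 5.30 FPKM in control. Groups were separate in all comparisons for Rap1gap and Il20rb, and model overlapped control for Pcsk4.

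None of the other 5 tested members was near the top of this order. Tsc22d3, the nearest, stood at rank 4190 of the tested genes by the same measure, with a difference of 1.01, and Zbtb16, the farthest, at rank 12524 with 1.76. Genes were picked for this likeness, so it is a description over 9 libraries that share 3 groups.

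**Figure D4:**
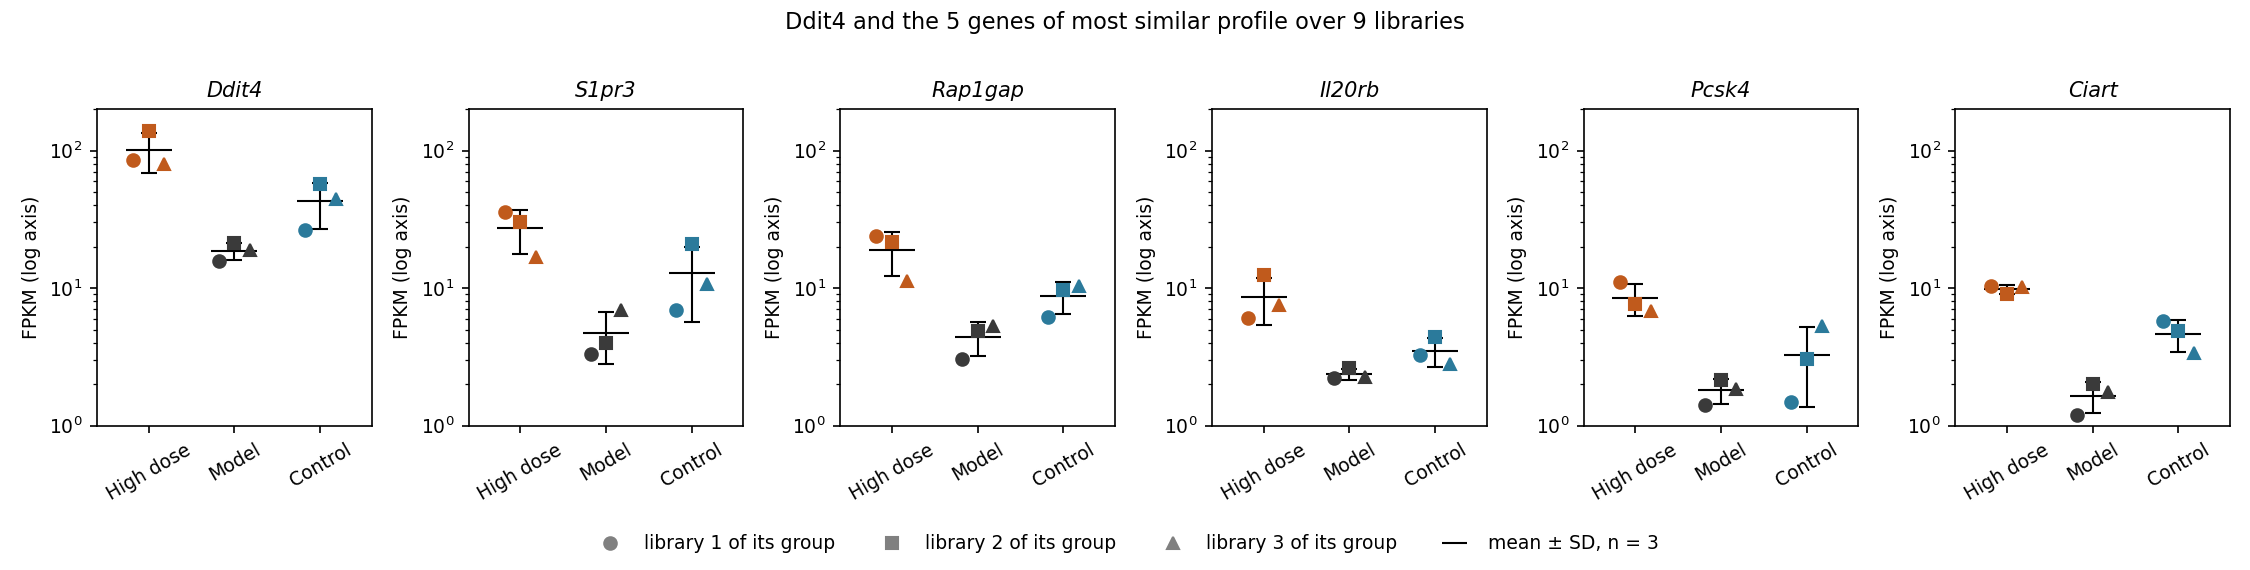
FPKM on a log axis of Ddit4 and the 5 genes most like it in each of the 9 libraries, ordered high dose, model and control. All 6 genes are highest in high dose and lowest in model on average, with Ddit4 at 102, 18.7 and 42.7 FPKM.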

How the data were processed

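The authors deposited FPKM values, fragments scaled by gene length and library total, for 21989 protein-coding genes per library. TRIzol extraction, mRNA purification and NEBNext Ultra library preparation are stated per the labels' protocols. The submitters' processing notes name GRCm38.p5 and mm10. For aligner, counter and strandedness, the choice is not given in the sources used here. As each FPKM depends on the library total, abundant genes of neighbouring tissue lower all others. All libraries carry batch label 1, so no batch could be compared.

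Log2(FPKM + 1) was fitted with limma 3.58.1 in R 4.3.3 over all 9 libraries, with group means, trended empirical Bayes and two-sided p-values with Benjamini-Hochberg adjustment over the 12895 genes at 1 FPKM or more in at least 3 libraries. The fit was tested on simulated data. Groups were called separate where no library of one overlapped the other. Relative depth came from the most frequent ratio between 2 libraries over genes under 0.2 FPKM in both, averaged over pairs. FPKM values are not counts, so no counting interval was computed. Positions came from GENCODE M21, and figures from matplotlib 3.10.9. The members and gene lists were chosen with earlier results of these data known. Beside members, the genes named are the 2 of smallest p per list and comparison, 6 chosen induced genes, the 5 most like Ddit4, and Apoe; Trib3, Dbp, Lamb3, Cyp11b1 and Hsd3b1 were named after their values were seen. The groups on 1.28 and 2.56 g/kg/day and on atorvastatin were not analysed here.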

Additional observations from a re-analysis of the deposited data

How the results depend on the processing

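The 10 kinds of alternative, with each library left out in turn, gave 18 settings. Ddit4 kept its sign in all 18 for every comparison, with a log2 difference of 2.09 to 2.50 between high dose and model and -1.40 to -0.70 between model and control, where the smallest adjusted p was 0.117. No member passed in model against control under any setting. With array weights, 684 of the 12895 genes tested passed an adjusted p of 0.05 in limma in model against control. The lists held 14 of them. In high dose against model 6 of the 12895 passed, of which the lists held 3 (Ciart, Dbp and Mt1). The weights were 5.92 for model 2, 3.00 for model 3 and 2.00 for control 1, and 0.379 to 0.813 for the other libraries. These calls thus lean on few libraries, and control 1 is rich in heart muscle markers while model 2 and 3 are low in them. Using only the groups compared gave 1 gene in high dose against model. Leaving out 1 library gave 0 to 46 genes in high dose against model, 46 without high dose 3, and 0 to 1 in the lists. The Tsc22d3 difference between model and control became 0.032 with heart muscle markers as a covariate, and that of Zbtb16 became -0.13 with array weights and ran from -0.62 without control 3, over -0.13 without model 3, to 0.73 without control 2; the cause was not tested. Separate members numbered 3 after rescaling and 4 to 5 with a library left out in high dose against model, and 1 and 2 to 3 in high dose against control. The share over all genes was not computed for these settings, and smaller groups separate more easily, so nothing is read from these counts. A replicate block gave 0 genes in every comparison. After group means were taken away, same-numbered libraries of different groups correlated at -0.52 to 0.31. Libraries of different number and group correlated at -0.38 to 0.44. With 3 libraries per group, these values cannot settle whether the numbers mark pairs. Values under 1 FPKM, as for Fkbp5 and Errfi1, are limited by depth.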

Other observations

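Clock genes were read as a further list, chosen with earlier results of these data known. Nothing is read from an excess of the clock gene counts over the shares of all genes. Of 15 clock genes 7 had an unadjusted p under 0.05 between high dose and model, 3 between high dose and control and 8 between model and control, beside 13.4%, 5.44% and 6.37% of all genes tested, and 0 passed an adjusted p of 0.05 in limma. Nr1d1, a repressor of the clock loop, was 112, 134 and 101 FPKM in high dose, 44.6, 36.6 and 41.5 FPKM in model, and 130, 126 and 86.7 FPKM in control. Model lay below both groups in every library, with a log2 difference of -1.44 ± 0.234 from control (SE, adjusted p = 0.688). Bhlhe40, a clock repressor that also answers to hypoxia, averaged 53.0 ± 8.01 FPKM in high dose, 34.9 ± 8.46 FPKM in model and 26.9 ± 5.07 FPKM in control (SD, n = 3 each). Times of tissue collection are not given in the labels.

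Of 16 immediate early genes, which answer within minutes to many stimuli, 0 passed in any comparison, and an unadjusted p under 0.05 was reached by 1 between high dose and model, 1 between high dose and control and 2 between model and control, beside the same shares of all genes. Egr1 was 47.0, 81.5 and 94.3 FPKM in high dose, 34.5, 23.6 and 35.6 FPKM in model, and 252, 117 and 38.2 FPKM in control. Fos was 12.2, 15.9 and 36 FPKM in high dose, 30.6, 33.1 and 27.6 FPKM in model, and 178, 82.3 and 24.3 FPKM in control. Of 9 adrenal cortex genes only 2 were tested, Scarb1 and Star, with 0 at an unadjusted p under 0.05, beside the same shares of all genes.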
